A study of Mus musculus with 2 samples.

Results

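Mir21a, Mir22, Mir31 and Mir193a are microRNA (miRNA) genes that have been linked to reactive or injured glia, and they were chosen for that link and matched by gene symbol in the M21 gene annotation. They are 4 of the 2202 miRNA genes in the count tables. All 4 had at least 10 counts in each library, the level at which a gene is called detected here, as had 384 of the 2202 genes. The libraries hold RNA under 30 nt from the hippocampus of adult female mice, 8 to 10 months old, whose strain is labelled 5xFAD/CAST. Transgenes of 5xFAD mice act in neurons and lead to amyloid plaques with activated astrocytes and microglia around them, while CAST names a wild-derived inbred strain. There is 1 group with 2 biological replicates, and both carry the label 5xFAD/CAST. Neither an animal without the transgenes nor a second age or brain region is among the samples, so the data give levels and the distance between 2 libraries, not a response to amyloid, and whether glia were reactive was not measured.

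A miRNA is cut from a hairpin in a longer transcript, and bases 2 to 8 of the mature strand, the seed, pair with target mRNAs and lower their output. Astrocytes and microglia answer injury and plaques by changing shape and gene expression, and a small set of miRNAs is induced in, or acts on, that response. miR-21 is known from reactive astrocytes after spinal cord injury and represses Pdcd4, a tumour suppressor gene. miR-22 is broadly expressed and represses Hdac4, a histone deacetylase. miR-31 is best known from epithelial cells and tumours, and miR-193a from tumours, where its targets include the survival gene Mcl1. None of the 4 is restricted to glia, and counts from whole tissue do not say which cells a miRNA came from.

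The mature arms are printed to show that the 4 genes bring 8 unrelated seeds and which near copies exist. Sequences are from RefSeq on GRCm38.p6, the same reference genome as mm10, run 5′ to 3′, and have the seed in capitals. All 4 genes matched the table by symbol. The arms of the 4 genes are these.
miR-21a-5p: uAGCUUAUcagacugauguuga
miR-21a-3p: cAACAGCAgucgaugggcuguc
miR-22-5p: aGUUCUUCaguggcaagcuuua
miR-22-3p: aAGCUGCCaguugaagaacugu
miR-31-5p: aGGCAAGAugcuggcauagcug
miR-31-3p: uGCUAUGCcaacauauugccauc
miR-193a-5p: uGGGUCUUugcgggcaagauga
miR-193a-3p: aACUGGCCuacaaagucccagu
The closest relatives by name are these.
miR-21b: uAGUUUAUcagacugauauuucc
miR-21c: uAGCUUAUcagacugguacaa
miR-193b-3p: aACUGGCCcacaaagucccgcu

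The 8 arms have 8 different seeds, and 0 of the 8 is identical to an arm of another gene among the 1738 mature arms in the table. Their length is 22 or 23 nt, and their GC content spans 36.4% in miR-21a-5p to 59.1% in miR-21a-3p. Only 2 of the seeds recur in another gene of the table. miR-21a-5p shares its seed with miR-21c, and miR-193a-3p with miR-193b-3p. miR-21a-5p and miR-21c are the same over their first 15 bases and differ at 5 of the 21 positions both have. miR-21b differs from miR-21a-5p at 4 of 22 positions, 1 of them in the seed (C4U, counted from 1 at the 5′ end, miR-21a-5p first). miR-193a-3p and miR-193b-3p differ at 3 of 22 positions, all after the seed.

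The 4 genes lie apart from each other. Mir21a (ENSMUSG00000065455.1) is on the minus strand of chromosome 11 from 86584067 to 86584158 (mm10), within the 3′ UTR of Vmp1, a gene of autophagy. Mir22 (ENSMUSG00000065529.1) is on the plus strand of chromosome 11 from 75463716 to 75463810, inside an exonic stretch of its non-coding host Mir22hg that the annotation also gives to Tlcd2. Mir193a (ENSMUSG00000065395.1) is on the plus strand of chromosome 11 from 79711969 to 79712034 and overlaps no other gene of that strand. Mir31 (ENSMUSG00000065408.1) is on the minus strand of chromosome 4 from 88910557 to 88910662, where AL805899.1, a lincRNA gene, has an exon. Another annotated miRNA gene within 10000 bp on the same strand was found for 0 of the 4. Although 3 of the 4 share chromosome 11, the 3 did not lie on the same side: Mir21a was higher in replicate 1 and Mir22 and Mir193a in replicate 2. Of the 25 detected genes of that chromosome, 10 were higher in replicate 1.

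Replicate 1 held 3135960 counts assigned to miRNA genes on their own strand, and replicate 2 held 4377622. Levels are given as counts per 1000000 of these (CPM). Reads at several genomic positions, 36.3% of all reads in replicate 1 and 41.7% in replicate 2, are not among the gene counts. Marker miRNAs of hippocampal tissue were present in part. Of 13 neuronal genes 9 were detected, led by Mir127 at 24284 and 24896 CPM in replicates 1 and 2, and the oligodendrocyte genes Mir219a-2 and Mir338 stood at 3298 and 3783, and at 3496 and 2897 CPM. The 3 genes of Mir124a, the classic neuronal miRNA, had between 0 and 8 counts per library, and reads that these copies share may be among those left out.

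Mir22 had the highest mean level of the 4. It had 15036 counts, or 4795 CPM, in replicate 1 and 52717 counts, or 12042 CPM, in replicate 2 (exact 95% binomial intervals 4719 to 4872 and 11940 to 12145). That made 8419 ± 5125 CPM (SD, n = 2) and rank 24 of 2202 by mean level. Replicate 2 was the high library, at rank 17, against rank 38 in replicate 1.

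Mir21a came next by mean level. It had 16233 counts, or 5176 CPM, in replicate 1 and 7380 counts, or 1686 CPM, in replicate 2 (intervals 5097 to 5256 and 1648 to 1725), which made 3431 ± 2468 CPM (SD, n = 2). Replicate 1 was the high library here, at rank 34, against rank 68 in replicate 2.

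Mir31 stood at 1016 CPM in replicate 1 and 381 CPM in replicate 2, from 3187 and 1669 counts (intervals 981 to 1052 and 363 to 400.0). Its mean was 699 ± 449 CPM (SD, n = 2), and as for Mir21a the high library was replicate 1. Mir193a was the scarcest of the 4, at 45.0 CPM in replicate 1 and 58.0 CPM in replicate 2, from 141 and 254 counts (intervals 37.8 to 53.0 and 51.1 to 65.6). Its mean of 51.5 ± 9.23 CPM (SD, n = 2) put it at rank 236. The 2 intervals overlapped for Mir193a and did not for the other 3 genes. These intervals cover counting error only, not the spread between animals. Reads copied by PCR are not independent molecules, so the intervals may be too narrow even for counting error.

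**Figure D1:**
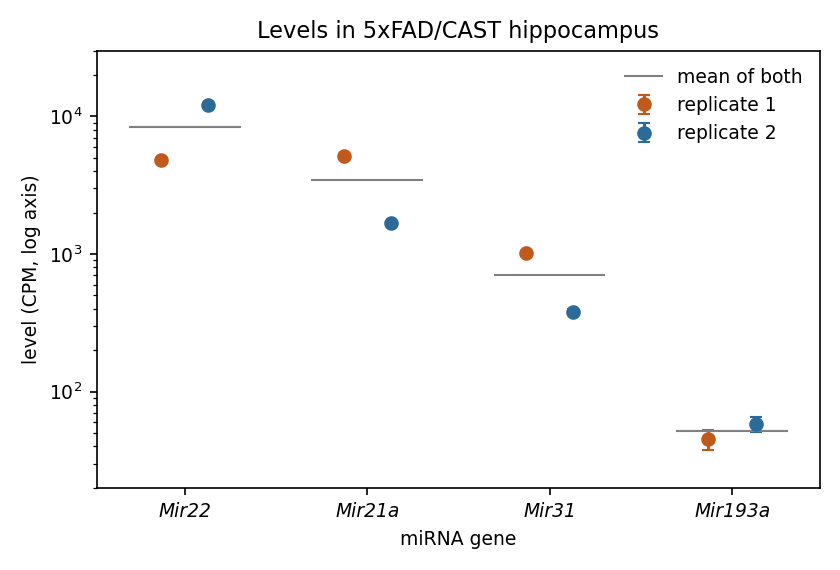
Level of each gene in CPM (log axis) in replicate 1 and replicate 2, with exact 95% binomial intervals for counting error, and the mean of both libraries as a grey line. Mir22 and Mir193a are higher in replicate 2, Mir21a and Mir31 in replicate 1, and the intervals of Mir193a alone overlap.

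By mean level the order was Mir22, Mir21a, Mir31, Mir193a, and it was the same per base of the annotated gene, at 88.6, 37.3, 6.59 and 0.780 CPM per nt. The first neighbours in that order did not differ beyond their spread: Mir22 in replicate 1, at 4795 CPM, lay below Mir21a in the same library, at 5176 CPM. The lower Mir21a level, 1686 CPM, was above the higher Mir31 level, 1016 CPM. The lower Mir31 level, 381 CPM, was above the higher Mir193a level, 58.0 CPM. Taken as 2 unpaired values against 2, an exact two-sided permutation test between 2 of these genes could not go below p = 0.333. Both genes come from the same 2 libraries, so their values are paired, and no such test was run.

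The 4 genes together held 1.10% of the counts in replicate 1 (exact 95% binomial interval 1.09% to 1.11%) and 1.42% in replicate 2 (1.41% to 1.43%), or 1.26% ± 0.222 (SD, n = 2). Their make-up differed between the libraries. Mir21a supplied 46.9% of the counts of the 4 in replicate 1 and 11.9% in replicate 2, while Mir22 supplied 43.5% and 85.0%. Mir31 supplied 9.21% and 2.69%, and Mir193a 0.408% and 0.410%.

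**Figure D2:**
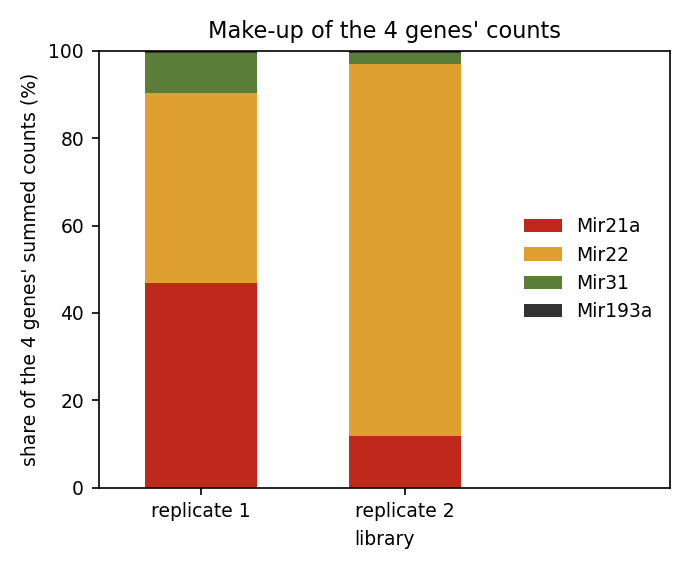
Share of each gene in the summed counts of Mir21a, Mir22, Mir31 and Mir193a, in percent, in replicate 1 and replicate 2. Mir21a makes up 46.9% in replicate 1 and 11.9% in replicate 2, and Mir22 makes up 43.5% and 85.0%.

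The 4 genes did not move together between the libraries. Mir21a was 3.07-fold higher in replicate 1 than in replicate 2 (95% interval 2.99 to 3.16, from the exact binomial interval of its counts), and Mir31 was 2.67-fold higher (2.51 to 2.83). In the other direction, Mir22 was 2.51-fold higher in replicate 2 (2.47 to 2.56), and Mir193a 1.29-fold higher (1.05 to 1.60). Thus 3 of the 4 lay at least 2-fold apart, against 12.2% of the 384 detected genes. The 2 that were higher in replicate 1 stand beside 6.51% of detected genes that far apart in this direction, and the 1 that was higher in replicate 2 beside 5.73%.

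The distances are set here against all detected genes. The median detected gene differed by 0.36 on the log2 scale, in either direction. Mir21a, with a log2 ratio of replicate 1 over replicate 2 of 1.62, held place 20 of 384 by distance. Mir31, at 1.41, held place 22 and Mir22, at -1.33, place 26. Mir193a, at -0.37, held place 192, close to the middle. Its 2 libraries were thus about as far apart as those of a typical detected gene.

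**Figure D3:**
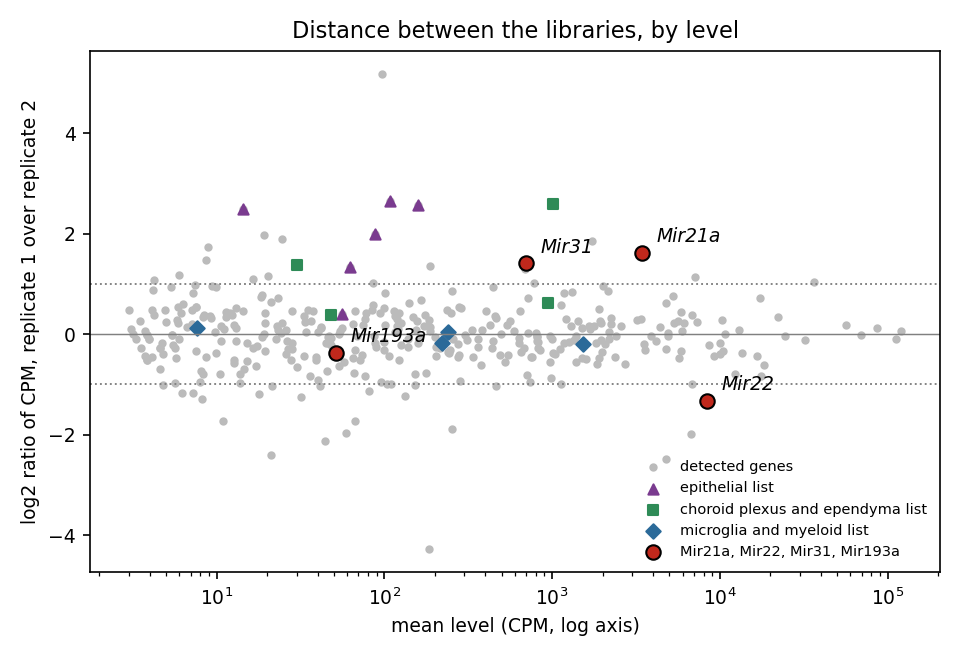
Log2 ratio of CPM, replicate 1 over replicate 2, against mean level in CPM (log axis) for the 384 detected genes in grey, with marker lists coloured and 2-fold marked by dotted lines. Mir21a and Mir31 lie above the upper line at 1.62 and 1.41, Mir22 below the lower line at -1.33, and Mir193a near 0 at -0.37.

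An exact two-sided binomial test of each gene's 2 counts, adjusted by Benjamini-Hochberg over the 459 genes with at least 10 counts in either library, called all 4 genes at 0.05. It compares the reads of these 2 libraries, with counting error as its only null, and it called 58.4% of all genes tested, 25.5% as higher in replicate 1 and 32.9% as higher in replicate 2. A call is therefore the common outcome. The adjusted p of Mir193a was 0.0298 by this exact test, and the call ended with DESeq2 size factors (0.0677) and when the 10 most abundant genes were left out of the total (0.139).

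Ratios between 2 of the genes within a library do not depend on how libraries are scaled. There were 0.926 Mir22 counts for each Mir21a count in replicate 1, and 7.14 in replicate 2. The log2 ratios of Mir21a and Mir22 differed by 2.95 (SE 0.0243, counting error only), a 7.71-fold difference in their balance. Mir31 kept close to Mir21a: there were 5.09 Mir21a counts for each Mir31 count in replicate 1 and 4.42 in replicate 2, and the log2 ratios differed by 0.20 (95% interval 0.11 to 0.30). Mir193a lay between the pairs, with a log2 ratio that lay 1.99 below that of Mir21a (95% interval 1.69 to 2.29) and 0.96 above that of Mir22 (0.66 to 1.26).

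Of the relatives by sequence only Mir193b was detected. Mir21b and Mir21c had 0 counts in both libraries, where 3 counts, the limit that a 0 allows, would be 0.957 CPM for replicate 1 and 0.685 CPM for replicate 2. Mir193b, the seed partner of Mir193a, had 145 and 208 counts in replicates 1 and 2, or 46.2 and 47.5 CPM (46.9 ± 0.903, SD, n = 2). It was not called (adjusted p = 0.869, exact binomial test), and its ratio was not tested against that of Mir193a. The annotated neighbours of Mir193a and Mir193b had few counts. Mir365-2, 14365 bp downstream of Mir193a, had 8 counts in each library, and Mir365-1, near Mir193b, had 3 and 4. Reads that these Mir365 copies share may be among those left out of gene counts, so few counts need not mean a low level.

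The genes most like each of the 4 were those at the smallest distance on the log2 CPM of the 2 libraries, among 380 other detected genes. With only 2 libraries this likeness rests on a level and a ratio alone. Mir298 lay closest to Mir31, at a distance of 0.092, with 983 and 403 CPM in replicates 1 and 2, followed by Mir101b at 0.437. Mir7044 and Mir25 lay closest to Mir193a, at 0.163 and 0.205. Mir128-1, a restraint on neuronal excitability, lay closest to Mir22, at 0.416, with 4545 and 9069 CPM, and Mir23a was next at 0.727. Mir21a had the most distant nearest gene of the 4, Mir107 at 0.909, with 2775 and 1535 CPM, and Mirlet7f-2 followed at 0.965.

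Other miRNAs tied to injury and inflammation were spread over both directions. Of 18 listed genes 17 were detected, and the binomial test called 7 as higher in replicate 1 and 6 as higher in replicate 2, while 5 did not pass. Over all genes tested the shares called were 25.5% and 32.9%. The median log2 ratio of the 17 was 0.04, beside -0.03 over all detected genes. Of the 17, 2 lay at least 2-fold apart, close to the 12.2% of all detected genes. These 2, named after their values were seen, were Mir221 and its cluster partner Mir222, which repress the cell cycle inhibitor gene Cdkn1b. Mir221 stood at 9749 and 4420 CPM in replicates 1 and 2, and Mir222 at 2716 and 749 CPM, both high in replicate 1 like Mir21a and Mir31. The most abundant genes of the list were Mir29a at 14546 and 22255 CPM, Mir132, induced by neuronal activity, at 21687 and 13106 CPM, and Mir23a at 7813 and 10640 CPM.

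The 4 microglial and myeloid markers, all of them also on the injury and inflammation list, had smaller log2 ratios in size than Mir21a, Mir22, Mir31 and Mir193a. Mir146, which dampens Toll-like receptor signals, stood at 1421 CPM in replicate 1 and 1632 CPM in replicate 2. Mir142, of the haematopoietic lineage with microglia, stood at 245 and 237 CPM, and Mir155, induced in activated macrophages, at 208 and 235 CPM. The 4 listed genes, with Mir223, had a summed level of 1881 CPM in replicate 1 and 2111 CPM in replicate 2. Their log2 ratios ran from -0.20 to 0.13, and 0 of the 4 lay 2-fold apart. Only 12.2% of all detected genes did, so a count of 0 among 4 genes says little. The binomial test called 2 of them, Mir146 and Mir155, as higher in replicate 2. The oligodendrocyte list summed to 6799 and 6686 CPM, with 1 gene called in each direction and 1 not called, and the neuronal list to 60317 and 59266 CPM. Within the neuronal list the binomial test called 2 genes as higher in replicate 1 and 5 as higher in replicate 2, while 3 did not pass. The share called over all genes tested was 25.5% toward replicate 1 and 32.9% toward replicate 2. Of the 9 detected neuronal genes Mir132, at a log2 ratio of 0.73, lay farthest toward replicate 1, and Mir128-1, at 4545 and 9069 CPM, farthest toward replicate 2. The 3 leading neuronal genes were Mir127, Mir132 and Mir128-1, and the third oligodendrocyte gene, Mir219a-1, had 17 and 20 counts.

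**Figure D4:**
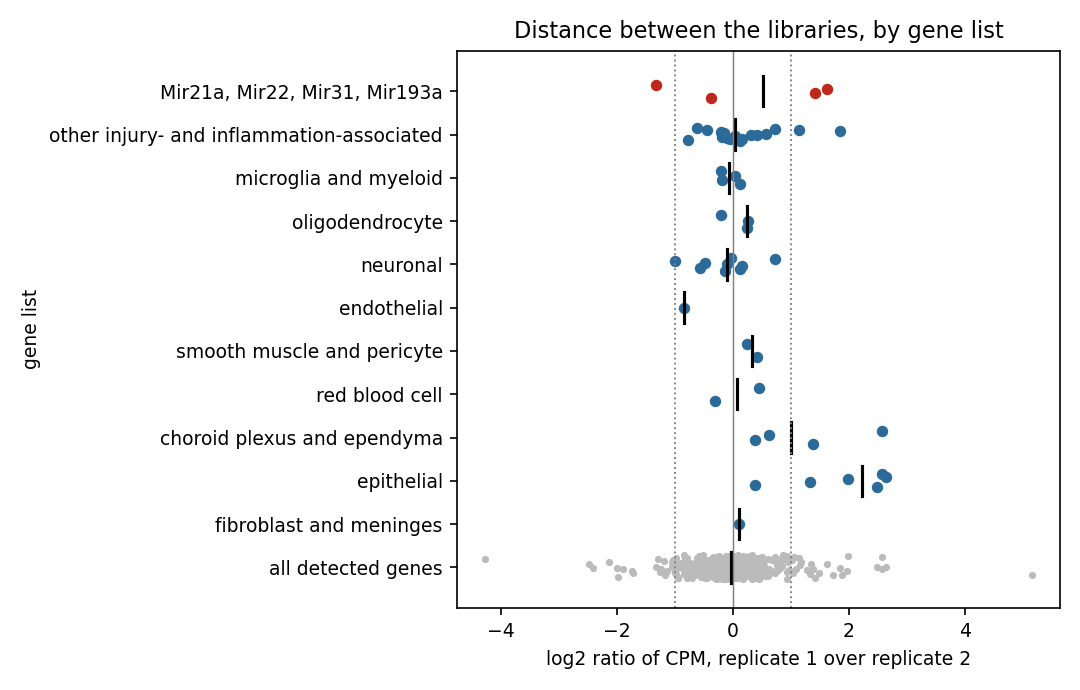
Log2 ratio of CPM, replicate 1 over replicate 2, for each detected gene of Mir21a, Mir22, Mir31 and Mir193a and of the marker lists, with all 384 detected genes at the bottom, medians as black bars and 2-fold as dotted lines. The epithelial and the choroid plexus and ependyma lists lie toward replicate 1, the side of Mir21a and Mir31, and the microglia and myeloid list lies near 0.

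The epithelial list and the choroid plexus and ependyma list summed higher in replicate 1, the library in which Mir21a and Mir31 were high. The 8 genes of the epithelial list had a summed level of 801 CPM in replicate 1 and 201 CPM in replicate 2. All 8 were called as higher in replicate 1 by the binomial test, beside 25.5% of all genes tested. In this list Mir183, Mir96 and Mir182 form a cluster known from sensory cells, so the 8 are not independent epithelial markers. Of the 6 detected genes of the list 5 were at least 2-fold higher in replicate 1, beside 6.51% of all detected genes. The exception, named after its values were seen, was Mir200b, 1.31-fold higher at 63.1 and 48.2 CPM. The median log2 ratio of the 6 was 2.23. Their leading genes were Mir183 at 270 and 45.5 CPM, Mir200c at 185 and 29.7 CPM and Mir429 at 141 and 35.6 CPM. None of the 8 was at 0 in either library.

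The 6 choroid plexus and ependyma genes had a summed level of 2993 CPM in replicate 1 and 1095 CPM in replicate 2. Most of that difference came from Mir34c alone. Of the 4 detected genes 2, Mir34c and Mir34b, were at least 2-fold higher in replicate 1, beside 6.51% of all detected genes. Mir34b, named after its values were seen, was 2.60-fold higher, at 43.4 and 16.7 CPM. Mir204 was 1.54-fold and Mir449a 1.30-fold higher in replicate 1. All 4 genes that had enough counts for the test were called as higher in replicate 1, beside 25.5% of all genes tested. Mir34c, of multiciliated cells, stood at 1747 and 292 CPM, Mir204, of the choroid plexus epithelium, at 1148 and 744 CPM, and Mir449a at 54.8 and 42.0 CPM. Mir449b was at 0 in both libraries, and Mir449c had 0 counts in replicate 1 and 1 in replicate 2. Of the 10 detected genes farther toward replicate 1 than Mir21a, 4 were on the epithelial list, Mir183 of the sensory cluster among them. On the choroid plexus and ependyma list was 1, and on the injury and inflammation list 1, Mir222. These lists held 6, 4 and 17 of the 384 detected genes. The counts restate the list values given above and are no independent support for a cell type. The part of epithelial, choroid plexus and ependymal cells in the levels of Mir21a and Mir31 was not tested. In whole tissue, fewer cells of a type and less RNA per cell cannot be told apart.

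On the side of Mir22, at a log2 ratio of -1.33, 9 detected genes lay farther toward replicate 2. None was on the epithelial, the choroid plexus and ependyma, or the injury and inflammation list. That follows from the lowest log2 ratios of their detected genes, 0.39, 0.38 and -0.77, and adds nothing about Mir22. The endothelial Mir126a moved the same way as Mir22, with 12521 CPM in replicate 1 and 22475 CPM in replicate 2, and its partner Mir126b was at 0 in both. The red blood cell genes Mir451a, Mir486 and Mir144 had a summed level of 70.2 CPM in replicate 1 and 78.4 CPM in replicate 2. Mir451a stood at 43.4 and 31.8 CPM, Mir486 at 23.9 and 29.5 CPM, and Mir144 at 2.87 and 17.1 CPM. The smooth muscle and pericyte genes Mir143 and Mir145a summed to 8170 and 6864 CPM. Their leading gene Mir143 stood at 7886 and 6653 CPM, and Mir145a at 284 and 212 CPM. Of the fibroblast and meninges list only Mir214 was detected, at 126 and 117 CPM. Mir199b had 0 and 2 counts, and Mir199a-1 and Mir199a-2 were at 0 in both libraries. Reads that these Mir199 copies share may be among those left out of gene counts. The part of endothelial, red blood, smooth muscle, pericyte, fibroblast and meningeal cells in the level of Mir22 was not tested.

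Nearly all reads at the 4 genes were on the genes' own strand. On the opposite strand Mir21a had 1 count in replicate 1 and 2 in replicate 2, and Mir22, Mir31 and Mir193a had 0 in both.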

How the data were processed

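The authors deposited 1 table of raw read counts per library, which names mm10 and the M21 annotation in the accompanying notes. For the aligner, counter and trimming the sources used here give no name. The 4 summary lines (unmapped, multimapping, outside genes, ambiguous) took 68.5% of reads in replicate 1 and 65.7% in replicate 2 and were kept out of totals and tests. The second of the 3 count columns was read as the sense strand, with 93.4% (replicate 1) and 91.9% (replicate 2) of the counts on either strand. A gene count adds both arms of a hairpin. CPM and ratios used no pseudocount. Total reads were 9962659 and 12761689.

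The members and gene lists were chosen with earlier results of these data known, so the direction of a list, the epithelial and choroid plexus lists included, is no independent support. Genes were named by a rule: the 4 members, the 2 most like each, seed relatives, neighbours and the 3 leading genes of each list, with exceptions marked or given as counts beside a list. P-values compare the reads of 2 libraries with counting error as the only null, and do not measure the spread between animals. Alternatives used edgeR 4.0.16 and DESeq2 1.42.0 in R 4.3.3. Tests ran in scipy 1.17.1 with numpy 2.4.6, tables in pandas 2.3.3 and figures in matplotlib 3.10.9, all under Python 3.11.15.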

Additional observations from a re-analysis of the deposited data

How the results depend on the processing

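The directions of all 4 log2 ratios were kept under TMM, DESeq2 size factors, all reads of the library, the total without the 10 most abundant genes, counts without regard to strand, and 1 or 5 CPM added to both libraries. At least 2-fold apart were 3 of the 4 genes under each scaling and strand setting. The log2 ratio of Mir193a missed the binomial threshold at -0.31 with DESeq2 size factors and at -0.26 without the 10 most abundant genes in the total; over all settings its adjusted p ran from 0.00237 to 0.139 (exact binomial test). Scaling to all reads moved the median log2 ratio of detected genes to -0.16, from -0.03 as reported.

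Per 1000000 of all reads, mean levels were 2820 for Mir22, 1104 for Mir21a, 225 for Mir31 and 17.0 for Mir193a, and the 4 genes held 0.417% of all reads; this denominator includes unmapped and multimapping reads. With no count minimum the binomial test called 35.3% of 757 genes, and with at least 100 counts in either library, which all 4 genes reach, 78.0% of 277 genes. With 1 replicate left out, a level is that of the other library: 4795 to 12042 CPM for Mir22, 1686 to 5176 CPM for Mir21a, 381 to 1016 CPM for Mir31, 45.0 to 58.0 CPM for Mir193a, and 1.10% to 1.42% for the share of the 4 genes. With 2 libraries each lies equally far from the mean, so this says nothing about stability. A ratio of 2 libraries has no value with 1 left out. Depth limits Mir193a, whose 141 and 254 counts gave a fold interval of 1.05 to 1.60.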
